A study of Homo sapiens with 24 samples.

Results

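The 39 genes described here are targets of the transcription factor NRF2 and other antioxidant genes, read as rows of the deposited count table that carry their symbols. They are 39 of 58735 genes in the table. All 39 were found, and SOD2 had 2 rows, 1 of them with almost no counts and not tested. By role they were 4 regulators, 8 glutathione genes, 8 genes of the thioredoxin and peroxiredoxin system, 4 enzymes that make or feed NADPH production, 10 genes of detoxification and export, 2 of heme breakdown, and the catalase and superoxide dismutase genes, 3 in number. Messenger RNA was sequenced from THP-1 and MOLM-13, established human acute myeloid leukemia lines known to carry the MLL-AF9 fusion. Each line received L-ascorbic acid (LAA, vitamin C, in PBS) at 250 µM together with olaparib (an inhibitor of poly-ADP-ribose polymerases, in DMSO) at 1 µM, LAA alone, olaparib alone, or the vehicle of both, PBS with DMSO. Treatment lasted 72 h. There were 8 groups with 3 libraries each, which makes 24. Cells of every group grew in RPMI medium with fetal bovine serum and antibiotics. The study asked how oxidation of methylated cytosine bears on the response to PARP inhibition. The labels leave it unsaid whether replicates came from separate cultures, and the spread behind the p-values may therefore be technical.

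NRF2, the product of NFE2L2, pairs with small MAF proteins such as that of MAFG and binds antioxidant response elements in the promoters and enhancers of its targets. KEAP1 holds NRF2 and presents it for ubiquitination and breakdown until oxidants or electrophiles modify KEAP1 cysteines, and the autophagy receptor SQSTM1 can take KEAP1 away. NRF2 is therefore controlled to a large extent as a protein, which the level of its own transcript does not show. Its classical targets import cystine, make glutathione, recycle thioredoxin, supply NADPH, reduce quinones and carbonyls and break down heme. In myeloid leukemia cells these enzymes also handle the oxidants that accompany growth and drug exposure.

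Total counts per library ran from 18666259 to 25265870, and the 39 genes took 0.662 to 0.82% of them. Myeloid markers were detected, 10 of 10 in each line, with summed levels of 1332 to 1559 CPM (counts relative to library size, after TMM scaling) in THP-1 and 1214 to 1469 CPM in the libraries labelled MOLM-13. T and NK markers summed to 12.6 to 23.5 CPM in THP-1 and 5.92 to 12.1 CPM in the libraries labelled MOLM-13, and B cell markers to 9.13 to 18.5 CPM in THP-1 and 10.3 to 14.8 CPM in the libraries labelled MOLM-13. Of 5 erythroid and megakaryocyte markers 3 were at 0 in each line, and of 5 epithelial and fibroblast markers 3 were at 0 in THP-1 and 2 in the libraries labelled MOLM-13.

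The libraries labelled MOLM-13 resembled the THP-1 libraries closely. Between the vehicle groups, THP-1 against the libraries labelled MOLM-13, 765 of 17089 genes (4.48%) were called by edgeR's quasi-likelihood fit at an adjusted p under 0.05, 202 of them at 2-fold or more. The mean log2(CPM + 1) values of these vehicle groups correlated across genes with a Pearson r of 0.995, against 0.988 between THP-1 with the combination and THP-1 with vehicle. Genes of chromosome Y were left out of the next 2 counts, so differences in them would not be seen there. Of 11793 other protein-coding genes with at least 20 counts in every THP-1 vehicle library, 0 had at most 6 counts over the vehicle libraries labelled MOLM-13. Conversely, 8 of 11822 such genes present at that level in the vehicle libraries labelled MOLM-13 (RAB34, DLX5, EMD, PROK2, MTAP, NFE4, ZFP57 and KLHL9) reached no more than 12 counts summed over THP-1's 12 libraries. These limits were chosen after values had been seen. The summed level of the 8 genes in the libraries labelled MOLM-13 was 3.21 ± 0.928 CPM with the combination, 3.85 ± 0.307 with LAA, 14.4 ± 0.842 with olaparib and 25.5 ± 0.917 with vehicle (SD, n = 3 each), and group means in THP-1 were at most 0.153 CPM. FLT3, a receptor gene known to be mutated in MOLM-13, ranged from 5.84 to 11.9 CPM among THP-1 libraries and from 5.93 to 37.8 CPM among those labelled MOLM-13. These values go against the label MOLM-13 as that of a distinct line. Which cells these libraries hold, MOLM-13, THP-1 or both, was not settled here. A line below therefore means a label, a line difference is one between labels, and a result found under both labels is no independent support. The part of the 8 genes' differences in the results below was not tested. Under the label MOLM-13, 3 libraries stood apart from their groups by the chi-square per gene between their counts. It was 16.99 and 24.95 between LAA replicate 3 and the others, against 5.43 between those, 19.99 and 25.1 for olaparib replicate 3, against 4.23, and 14.1 and 13.1 for vehicle replicate 1, against 5.24. THP-1 had smaller gaps of this kind. They were 9.29 and 8.22 for LAA replicate 2, against 4.31, and 7.51 and 11.5 for olaparib replicate 2, against 4.99. Group means in bulk RNA cannot tell fewer cells of a type from less RNA per cell.

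**Figure D1:**
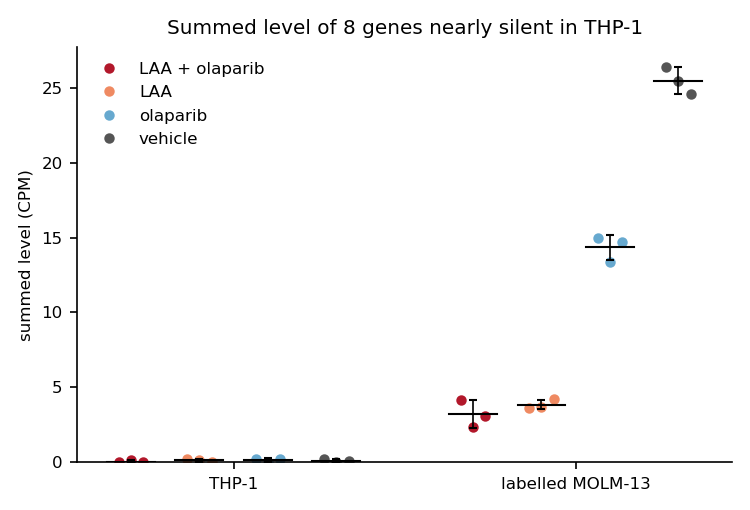
Summed level (CPM, TMM-scaled) of the 8 genes with at most 12 counts over all THP-1 libraries, by line and treatment, with points for libraries and bars for mean and SD (n = 3). Those labelled MOLM-13 averaged 3.21 CPM with the combination, 3.85 CPM with LAA and 25.5 CPM with vehicle, and every THP-1 group mean was at most 0.153 CPM.

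Promoter sequences were looked up for all 39 genes in RefSeq (GRCh38.p14), and 31 genes matched, with 46 promoters in windows of 300 bases (250 before and 50 after the start). The core of the antioxidant response element, TGACNNNGC, was searched on both strands and lay in 8 of 46 member promoters (17.4%), against 4687 of 35116 promoters in the table (13.3%). The longer form, the core followed by A, lay in 5 of 46 (10.9%) against 3.18% of all promoters. The 250 bases before the start are shown for the genes among those with a match that passed the test in THP-1 with LAA or the combination against vehicle. They are PGD (chr1:10398814-10399063 on the plus strand), GCLM (chr1:93909431-93909680 on the minus strand), EPHX1 (chr1:225825104-225825353 on the plus strand) and ME1 (chr6:83431052-83431301 on the minus strand). Capitals mark the core match, read as its reverse complement where it lies on the other strand. Of the 7 genes with a match, GSTP1, TXNRD1 and KEAP1 are not shown. GSTP1 and TXNRD1 were called in no comparison, and KEAP1 in none against vehicle. The shown genes were picked by their calls, so they cannot show whether a match goes with a change. A match describes letters and is not evidence of binding.
PGD: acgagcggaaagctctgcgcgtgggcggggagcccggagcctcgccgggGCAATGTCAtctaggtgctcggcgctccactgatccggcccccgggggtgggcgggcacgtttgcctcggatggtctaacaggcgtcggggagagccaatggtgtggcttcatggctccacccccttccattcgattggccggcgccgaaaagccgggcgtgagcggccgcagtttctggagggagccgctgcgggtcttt
GCLM: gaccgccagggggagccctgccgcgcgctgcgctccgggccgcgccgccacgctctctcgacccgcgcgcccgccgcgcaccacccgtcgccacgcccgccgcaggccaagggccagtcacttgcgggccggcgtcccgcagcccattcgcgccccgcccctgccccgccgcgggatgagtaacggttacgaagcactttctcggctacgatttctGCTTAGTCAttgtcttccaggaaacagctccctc
EPHX1: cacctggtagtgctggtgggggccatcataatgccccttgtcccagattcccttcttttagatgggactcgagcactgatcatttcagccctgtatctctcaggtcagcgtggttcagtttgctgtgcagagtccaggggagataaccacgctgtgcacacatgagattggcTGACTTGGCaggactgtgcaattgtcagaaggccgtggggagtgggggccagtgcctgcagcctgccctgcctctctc
ME1: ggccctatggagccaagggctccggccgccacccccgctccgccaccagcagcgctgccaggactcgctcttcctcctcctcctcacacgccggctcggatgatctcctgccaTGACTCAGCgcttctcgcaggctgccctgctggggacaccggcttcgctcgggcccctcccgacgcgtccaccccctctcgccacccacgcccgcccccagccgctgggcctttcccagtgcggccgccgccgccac

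AKR1C1 and AKR1C2 are shown because their promoters are near-identical copies and their transcripts share sequence. Over an alignment of their 250-base windows, 245 of 254 columns were identical (96.5%), and capitals mark the bases with no identical partner. These capitals lie only at the window ends, where the windows are offset, and mostly face gaps rather than different bases. AKR1C3 matched them in 69.2 to 71.4% of columns. The windows lie at chr10:4963165-4963414 on the plus strand and chr10:5003858-5004107 on the minus strand (GRCh38.p14, RefSeq).
AKR1C1: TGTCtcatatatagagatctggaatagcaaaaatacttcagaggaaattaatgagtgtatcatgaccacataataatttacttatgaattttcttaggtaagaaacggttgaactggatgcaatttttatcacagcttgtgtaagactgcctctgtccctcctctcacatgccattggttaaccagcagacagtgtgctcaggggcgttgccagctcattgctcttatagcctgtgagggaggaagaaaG
AKR1C2: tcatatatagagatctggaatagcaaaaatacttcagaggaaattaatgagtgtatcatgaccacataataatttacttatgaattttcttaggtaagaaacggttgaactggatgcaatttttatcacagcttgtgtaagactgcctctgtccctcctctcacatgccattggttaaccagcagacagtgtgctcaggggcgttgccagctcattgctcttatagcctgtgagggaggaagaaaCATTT
Of the 50-base words in reference transcripts, 44.4% in AKR1C2, 26.9% in AKR1C1 and 9.55% in AKR1C3 also occurred in another of AKR1C1 to AKR1C4. Reads from such words cannot be assigned with certainty, so the AKR1C values carry that uncertainty throughout. Calls of several AKR1C genes in the same comparison are therefore not independent, although counts of called members include each of them.

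With LAA alone, the aldo-keto reductase gene AKR1C3 rose in THP-1 and in the libraries labelled MOLM-13. AKR1C1 and AKR1C2 were called higher there too, and of these calls that of AKR1C2 in THP-1 held with any 1 library left out and the others did not. With the combination, the cystine transporter gene SLC7A11 rose and the glutathione peroxidase gene GPX1 and the peroxiredoxin gene PRDX5 fell under each label, and AKR1C2 fell in THP-1. With olaparib alone no member passed the test. A gene is called here when edgeR's quasi-likelihood test gave a Benjamini-Hochberg adjusted p under 0.05 over all genes tested, with 3 libraries per group. Differences are log2 fold changes ± SE, the group named first minus the other. All 39 genes passed the filter on low counts. Errors beside mean levels are SD over 3 libraries. Losses listed with a call leave out the fit with a replicate block, whose losses are given at the end.

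With the combination against vehicle in THP-1, 8 members were higher and 7 lower, 15 of 39 (38.5%), beside 27.1% of 16331 genes tested, 13.5% in each direction. Scaling by total counts in place of TMM gave 11 higher and 3 lower. The members' median log2 fold change was -0.02 (0.02 scaled by total counts), and that of all genes -0.01. No share of called members was tested against its background. No background here or below was matched to the members by level, and genes with more counts are called more readily. LAA against vehicle in THP-1 called 7 of 39 (17.9%), 6 higher and 1 lower, beside 1.49% of all genes (0.937% higher and 0.551% lower), and the members' median was 0.12 against 0.00 for all genes. That count of 7 went to 3, 2, 2 or 3 without LAA replicate 1, LAA replicate 3, vehicle replicate 2 or vehicle replicate 3. It includes AKR1C1, AKR1C2 and AKR1C3, which share sequence and are not independent calls. Olaparib against vehicle in THP-1 called 0 of 39 beside 0.269% of all genes (0.184% higher and 0.0857% lower). At an unadjusted p under 0.05 there were 6, DESeq2 called 0, and 1 was called without olaparib replicate 3.

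Among the libraries labelled MOLM-13, the combination against vehicle called 11 of 39 (28.2%), 3 higher and 8 lower, beside 12.2% of 16160 genes (4.85% higher and 7.35% lower), with a members' median of -0.08 beside 0.00 for all genes. Scaling by total counts gave 6 higher and 6 lower. The count of 11 went to 5 without combination replicate 2, combination replicate 3 or vehicle replicate 1, and to 6 without vehicle replicate 3. LAA called 4 of 39 (10.3%), all higher, beside 1.88% of all genes (0.792% higher and 1.08% lower), with a members' median of 0.12 beside 0.00 for all genes. That count was 2 without LAA replicate 3 or vehicle replicate 2, 1 without vehicle replicate 3 and 3 without vehicle replicate 1. The called genes were CAT and AKR1C1, AKR1C2 and AKR1C3, which share sequence and are not independent calls. Olaparib called 0 of 39 beside 0.00619% of all genes, 6 at an unadjusted p under 0.05 and 0 by DESeq2. The 3 treatments in a line share their vehicle libraries, and in the libraries labelled MOLM-13 each treated group also had less of the 8 genes nearly silent in THP-1 than vehicle had. Mitochondrially encoded counts took 8.38 ± 0.941% with the combination and 7.09 ± 0.350% with vehicle in THP-1, and 9.08 ± 0.302% with the combination and 6.71 ± 0.033% with vehicle in the libraries labelled MOLM-13 (SD, n = 3 each), and the part of this in the combination's values was not tested. The plot of changes against vehicle gives all 39 genes.

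**Figure D2:**
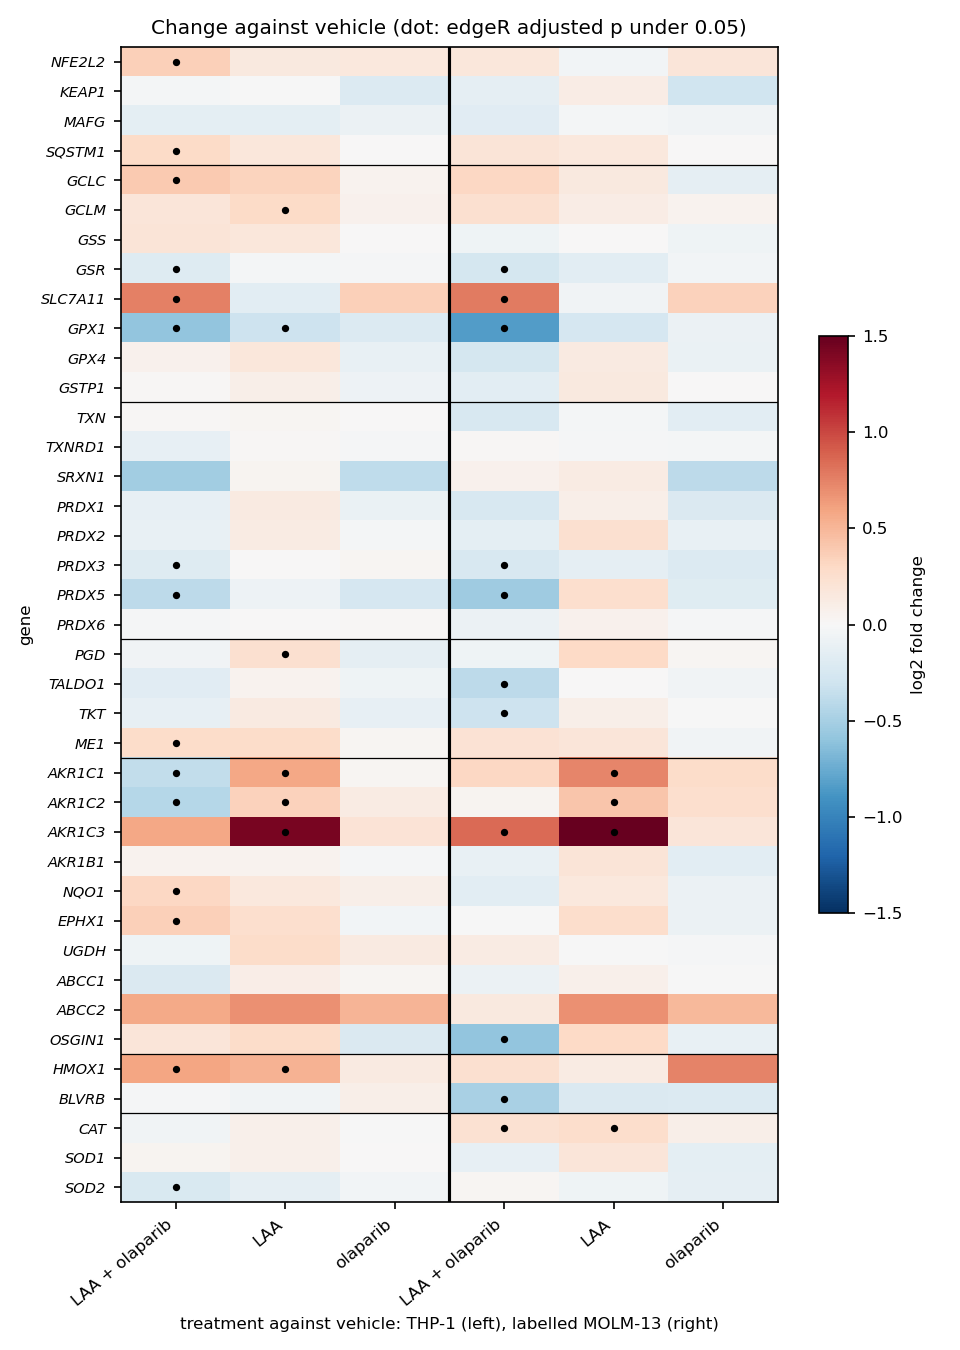
Log2 fold changes against vehicle (colour scale) of the 39 genes, in rows by role, for the combination, LAA and olaparib in THP-1 (left columns) and in the libraries labelled MOLM-13 (right columns), with dots where the edgeR adjusted p was under 0.05. Dots lie on 15, 7 and 0 genes in THP-1 and on 11, 4 and 0 genes in the libraries labelled MOLM-13.

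Among the 4 regulators, NFE2L2 and SQSTM1 rose with the combination in THP-1, and no regulator passed the test with LAA or olaparib alone in either line. NFE2L2 (chr2:177227595-177392697, minus strand, ENSG00000116044, hg38 per the submitters' processing notes), the gene of NRF2 itself, had 100.3, 113 and 107 CPM with the combination, 88.98, 88.8 and 98.9 with LAA, 95.01, 91.5 and 90.4 with olaparib and 91.3, 75.03 and 82.1 with vehicle in THP-1. Its 3 combination libraries lay above all 3 vehicle libraries, a difference of 0.36 ± 0.07, edgeR adjusted p = 0.00061. Within the libraries labelled MOLM-13 it had 90.6, 90.4 and 91.1 CPM with the combination, 80.6, 85.1 and 70.97 with LAA, 82.2, 79.02 and 113 with olaparib and 85.1, 79.6 and 78.2 with vehicle. There the combination libraries were also above vehicle, but the difference of 0.16 ± 0.11 did not pass (edgeR adjusted p = 0.366). SQSTM1, the receptor that binds KEAP1, had 147, 159.8 and 138 CPM with the combination and 119.8, 129.5 and 114 with vehicle in THP-1 (0.28 ± 0.07, edgeR adjusted p = 0.00272), with no overlap. Both genes overlap neighbours on the other strand. Among these, NFE2L2 overlaps AGPS over 54 bases, and SQSTM1 overlaps MGAT4B over 555 and MRNIP over 2946 bases. The kit does not mark strand, so reads from such shared stretches cannot be told apart.

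KEAP1 (chr19:10486120-10503741, minus strand, ENSG00000079999), the inhibitor of NRF2, had 146, 148 and 157 CPM with the combination, 156, 159 and 142 with LAA, 132, 123 and 141 with olaparib and 146, 157 and 153 with vehicle in THP-1. The combination and vehicle libraries overlapped (-0.03 ± 0.07, edgeR adjusted p = 0.818). With olaparib its 3 libraries were below all vehicle libraries in each line, and neither difference passed (-0.20 ± 0.07, edgeR adjusted p = 0.277 in THP-1, and -0.29 ± 0.08, adjusted p = 0.298, in the libraries labelled MOLM-13). KEAP1 in the libraries labelled MOLM-13 had 139.9, 135 and 134 CPM with the combination, 165, 149 and 169.7 with LAA, 127, 127 and 112 with olaparib and 149.5, 141 and 158 with vehicle. It was called higher in THP-1 with the combination against olaparib (0.18 ± 0.07, edgeR adjusted p = 0.0481) and lower with the combination against LAA in the libraries labelled MOLM-13 (-0.24 ± 0.08, edgeR adjusted p = 0.0373). The first call was lost without combination replicate 1, 2 or 3 or olaparib replicate 1 or 2 (edgeR adjusted p of 0.0521 to 0.194) and with no filter on low counts or with only both compared groups fitted (adjusted p of 0.0709 to 0.12). The second was lost without combination replicate 1, 2 or 3 or LAA replicate 1 or 3 (edgeR adjusted p of 0.0681 to 0.129) and with total-count scaling or with no filter on low counts (adjusted p of 0.0592 to 0.132). MAFG, a small MAF partner, was called in no comparison, with differences against vehicle from -0.17 (combination, labelled MOLM-13) to -0.03 (LAA, labelled MOLM-13). It overlaps SIRT7 on the same strand over 3054 bases.

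In the glutathione group SLC7A11 rose and GPX1 fell with the combination in each line. SLC7A11 (chr4:138164097-138242349, minus strand, ENSG00000151012) encodes the cystine importer xCT, which supplies cysteine for glutathione. In THP-1 it had 63.6, 68.2 and 57.9 CPM with the combination, 35.2, 29.9 and 35.6 with LAA, 48.4, 51.4 and 43.5 with olaparib and 42.9, 35.6 and 33.2 with vehicle. Every combination library was above every other THP-1 library (0.75 ± 0.10, edgeR adjusted p = 1.29e-06 against vehicle, a 1.68-fold difference, and 0.91 ± 0.10, edgeR adjusted p = 8.08e-08 against LAA). The libraries labelled MOLM-13 had 34.8, 44.6 and 39.4 CPM with the combination, 20.4, 26.9 and 19.6 with LAA, 27.3, 33.5 and 27.03 with olaparib and 20.1, 23.5 and 25.5 with vehicle. Again the 3 combination libraries were the highest of the 12 (0.78 ± 0.13, edgeR adjusted p = 0.000609 against vehicle). With LAA alone the difference did not pass in either line (-0.15, edgeR adjusted p = 0.582 in THP-1 and -0.05, adjusted p = 0.908 in the libraries labelled MOLM-13). With olaparib alone all 3 libraries lay above vehicle by 0.36 ± 0.10 and 0.34 ± 0.13, which did not pass (edgeR adjusted p = 0.163 and 0.536). The combination exceeded the sum of the single effects in THP-1 (interaction 0.55 ± 0.14, edgeR adjusted p = 0.0136), a call lost without vehicle replicate 1 (edgeR adjusted p = 0.0643) and with limma on FPKM (adjusted p of 0.0784 to 0.0819). For the libraries labelled MOLM-13 the interaction was 0.49 ± 0.19 (edgeR adjusted p = 0.244).

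GPX1 (chr3:49357171-49358600, minus strand, ENSG00000233276) encodes a selenium-dependent glutathione peroxidase that reduces hydrogen peroxide. The deposited annotation lists it as a polymorphic pseudogene. It was the most abundant member per length, at 879 ± 52.6 FPKM in THP-1 vehicle and 927 ± 106 FPKM in vehicle libraries labelled MOLM-13. In THP-1 it had 821, 848 and 870.4 CPM with the combination, 959, 1161 and 957 with LAA, 1128, 991 and 1182 with olaparib and 1182, 1316 and 1305 with vehicle. All combination libraries were below all libraries of the other THP-1 groups (-0.59 ± 0.07, edgeR adjusted p = 2.53e-07 against vehicle, 1.51-fold lower). Across the libraries labelled MOLM-13 it had 791, 705 and 743 CPM with the combination, 1109, 967 and 1284 with LAA, 1139, 1205 and 1431 with olaparib and 1488, 1181 and 1341 with vehicle. The combination libraries were again the 3 lowest (-0.84 ± 0.11, edgeR adjusted p = 2.67e-05 against vehicle, 1.79-fold lower). Neither fall was lost when any library was left out. LAA alone lowered GPX1 in THP-1 (-0.31 ± 0.07, edgeR adjusted p = 0.0163), a call lost without LAA replicate 1 or 3 or vehicle replicate 2 or 3 (edgeR adjusted p of 0.12 to 0.177) and with limma on FPKM (adjusted p of 0.168 to 0.17).

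The first and rate-limiting enzyme of glutathione synthesis has a catalytic subunit, GCLC, and a modifier subunit, GCLM. GCLM had 118, 119.5 and 103 CPM with the combination, 125, 108 and 129.9 with LAA, 105, 107 and 99.2 with olaparib and 102, 98.7 and 97.5 with vehicle in THP-1. The LAA libraries were above all vehicle libraries (0.29 ± 0.07, edgeR adjusted p = 0.0469). The call was lost without LAA replicate 1 or 3 or vehicle replicate 1, 2 or 3 (edgeR adjusted p of 0.0959 to 0.27) and with limma on FPKM (adjusted p of 0.133 to 0.135). In the libraries labelled MOLM-13 GCLM had 98.9, 114 and 108 CPM with the combination, 101, 105 and 89.9 with LAA, 99.4, 94.2 and 89.6 with olaparib and 86.2, 92.8 and 94.2 with vehicle. No difference against vehicle passed there. GCLC rose with the combination in THP-1, 22.9 ± 1.86 CPM with the combination and 17.3 ± 1.28 CPM with vehicle (0.39 ± 0.12, edgeR adjusted p = 0.0131), lost without combination replicate 2 or vehicle replicate 2 (adjusted p 0.0553 to 0.0689). It was also higher with the combination than with olaparib in the libraries labelled MOLM-13 (0.45 ± 0.11, edgeR adjusted p = 0.0141), lost without combination replicate 2 or 3 or olaparib replicate 3 (edgeR adjusted p of 0.0602 to 0.0657). GSR, which reduces oxidized glutathione, fell with the combination, at 107, 113 and 112 CPM with the combination and 132, 122 and 122 with vehicle in THP-1 (-0.19 ± 0.06, edgeR adjusted p = 0.0221) and at 100.1, 104 and 115 CPM with the combination and 129.9, 127 and 126 with vehicle in the libraries labelled MOLM-13 (-0.27 ± 0.08, edgeR adjusted p = 0.0278). The groups did not overlap. The THP-1 call was lost without combination replicate 1 or vehicle replicate 1 (edgeR adjusted p of 0.102 to 0.153) and with total-count scaling (adjusted p = 0.0726). The other was lost without combination replicate 1 or 2 or vehicle replicate 1, 2 or 3 (edgeR adjusted p of 0.0629 to 0.134) and with total-count scaling (adjusted p = 0.0723). GPX4, which protects membranes from lipid peroxides, was called once, lower with the combination than with LAA in the libraries labelled MOLM-13 (-0.40 ± 0.12, edgeR adjusted p = 0.0298). The call was lost without combination replicate 2 or 3 or LAA replicate 1 or 3 (edgeR adjusted p of 0.0556 to 0.173) and with limma on FPKM (adjusted p of 0.0872 to 0.0879). GSS, which completes glutathione, and GSTP1, a glutathione transferase, were called in no comparison.

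In the thioredoxin and peroxiredoxin group no member was called higher in any comparison, and the calls fell on PRDX1, PRDX2, PRDX3 and PRDX5. PRDX5, a peroxiredoxin of mitochondria, peroxisomes and cytosol, had 77.5, 77.9 and 86.4 CPM with the combination, 105, 106 and 87.5 with LAA, 84.02, 72.9 and 107 with olaparib and 96.5, 118 and 101 with vehicle in THP-1. Its combination libraries lay below all vehicle libraries (-0.39 ± 0.10, edgeR adjusted p = 0.00487), and the call was lost without vehicle replicate 2 (adjusted p = 0.0511). Among the libraries labelled MOLM-13 it had 65.6, 53.3 and 66.8 CPM with the combination, 113, 94.3 and 114 with LAA, 76.95, 86.9 and 72.8 with olaparib and 96.4, 79.3 and 93.1 with vehicle. The 3 combination libraries were the lowest of the 12 there (-0.54 ± 0.11, edgeR adjusted p = 0.00202 against vehicle and -0.79 ± 0.11, edgeR adjusted p = 4.85e-05 against LAA). The interaction of -0.61 ± 0.15 in the libraries labelled MOLM-13 was called (edgeR adjusted p = 0.0359) but lost without combination replicate 1, 2 or 3, LAA replicate 1 or 3, olaparib replicate 1 or 2 or vehicle replicate 2 or 3 (edgeR adjusted p of 0.0506 to 0.13) and with limma on FPKM or with total-count scaling (adjusted p of 0.0808 to 0.0948). PRDX3, the mitochondrial peroxiredoxin, had 272, 311 and 284 CPM with the combination and 334, 323 and 330.4 with vehicle in THP-1 (-0.20 ± 0.06, edgeR adjusted p = 0.0158). Its values in the libraries labelled MOLM-13 were 316, 285 and 296 with the combination and 363, 339.7 and 356 with vehicle (-0.24 ± 0.07, edgeR adjusted p = 0.0342). The groups did not overlap. The THP-1 call was lost without combination replicate 1 or 3 or vehicle replicate 1 or 3 (edgeR adjusted p of 0.0504 to 0.117) and with total-count scaling (adjusted p = 0.0628). The other was lost without combination replicate 2 or 3 or vehicle replicate 1 or 3 (edgeR adjusted p of 0.0993 to 0.172) and with total-count scaling (adjusted p = 0.111).

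The cytosolic peroxiredoxin genes PRDX1 and PRDX2 passed only with the combination against LAA. PRDX1 was 273 ± 9.38 CPM with the combination and 327 ± 16.8 CPM with LAA in THP-1 (-0.27 ± 0.06, edgeR adjusted p = 0.00201) and 247 ± 2.700 CPM with the combination and 309 ± 38.4 CPM with LAA in the libraries labelled MOLM-13 (-0.33 ± 0.09, edgeR adjusted p = 0.0245), where it was lost without combination replicate 1, 2 or 3 or LAA replicate 3 (edgeR adjusted p of 0.0622 to 0.123) and with limma on FPKM or with total-count scaling (adjusted p of 0.0603 to 0.061). PRDX2 was 127 ± 6.39 CPM with the combination and 149 ± 17.03 CPM with LAA in THP-1 (-0.23 ± 0.07, edgeR adjusted p = 0.023), a call lost without combination replicate 1 or 2 or LAA replicate 2 (edgeR adjusted p of 0.0537 to 0.168) and with limma on FPKM (adjusted p of 0.0615 to 0.0621). It was 128 ± 3.36 CPM with the combination and 166 ± 23.5 CPM with LAA in the libraries labelled MOLM-13 (-0.38 ± 0.09, edgeR adjusted p = 0.00656). PRDX1 overlaps MMACHC on the other strand, and PRDX2 overlaps HOOK2 on the same strand over 5040 bases.

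TXNRD1, thioredoxin reductase and a classical NRF2 target, had 203, 223 and 202 CPM with the combination, 233, 218 and 234 with LAA, 233, 217 and 217 with olaparib and 236, 222 and 219 with vehicle in THP-1. Within the libraries labelled MOLM-13 it had 216, 219 and 205 CPM with the combination, 213, 221 and 187 with LAA, 208, 217 and 192 with olaparib and 200.4, 211 and 218 with vehicle. Within each line every pair of its groups overlapped, and differences against vehicle ranged from -0.12 (combination, THP-1) to 0.02 (combination, labelled MOLM-13). A processed pseudogene on the same strand, RPL18AP3, lies within its span. SRXN1, which repairs overoxidized peroxiredoxins, was scarce, with 1.59, 1.86 and 3.01 CPM with the combination, 3.94, 2.97 and 2.57 with LAA, 2.59, 2.702 and 1.795 with olaparib and 2.44, 4.17 and 2.63 with vehicle in THP-1. The libraries labelled MOLM-13 had 3.47, 3.36 and 2.84 CPM with the combination, 4.297, 2.63 and 3.14 with LAA, 2.59, 3.95 and 0.593 with olaparib and 2.82, 2.398 and 3.99 with vehicle. Its SE of 0.30 in THP-1 and 0.39 in the libraries labelled MOLM-13 (combination against vehicle) left only large changes detectable at this depth. TXN (thioredoxin) and PRDX6 were called in no comparison either.

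Of the 4 NADPH genes, ME1 rose with the combination in THP-1, and TALDO1 and TKT fell with it in the libraries labelled MOLM-13. PGD, an NADPH-producing enzyme of the pentose phosphate pathway whose promoter is shown above, had 507, 455 and 467 CPM with the combination, 567, 612 and 565 with LAA, 461, 431 and 453 with olaparib and 508, 487 and 478 with vehicle in THP-1. The 3 LAA libraries were the highest of the 12 (0.24 ± 0.06, edgeR adjusted p = 0.0236 against vehicle). That call was lost without LAA replicate 2 or 3 or vehicle replicate 2 or 3 (edgeR adjusted p of 0.0582 to 0.134) and with limma on FPKM (adjusted p of 0.0612 to 0.0643). The combination was below LAA (-0.29 ± 0.06, edgeR adjusted p = 0.000408). Across the libraries labelled MOLM-13 it had 417, 414 and 417 CPM with the combination, 519, 495 and 592 with LAA, 433, 422 and 477 with olaparib and 425, 443 and 441 with vehicle. There the same contrast gave -0.36 ± 0.08, edgeR adjusted p = 0.00355. ME1, the cytosolic malic enzyme, was 67.4 ± 3.04 CPM with the combination and 55.5 ± 2.902 CPM with vehicle in THP-1 (0.27 ± 0.07, edgeR adjusted p = 0.00688), lost without vehicle replicate 2 (adjusted p = 0.0526). TALDO1, transaldolase, had 334, 307 and 310.0 CPM with the combination and 452, 392 and 402 with vehicle in the libraries labelled MOLM-13 (-0.39 ± 0.09, edgeR adjusted p = 0.00588). TKT, transketolase, had 519, 490.2 and 494 with the combination and 619, 623 and 622 with vehicle there (-0.31 ± 0.08, edgeR adjusted p = 0.0117), without overlap, though the call was lost without combination replicate 2 or 3 (adjusted p 0.0636 to 0.0679). In THP-1 both were lower with the combination than with LAA (-0.25 ± 0.06, edgeR adjusted p = 0.00199 for TKT and -0.22 ± 0.07, edgeR adjusted p = 0.0167 for TALDO1), but the TALDO1 call was lost without combination replicate 1 or 2 or LAA replicate 2 (edgeR adjusted p of 0.06 to 0.0986) and with limma on FPKM (adjusted p of 0.0564 to 0.0565).

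AKR1C1, AKR1C2 and AKR1C3, neighbouring genes of chromosome 10 whose enzymes reduce steroids and reactive carbonyls, were called higher with LAA alone under each label, and AKR1C3 had the largest LAA effect of the 39 genes in each. AKR1C3 (chr10:5035354-5107686, plus strand, ENSG00000196139) had 6.23, 4.43 and 6.19 CPM with the combination, 8.71, 10.6 and 10.8 with LAA, 5.601, 2.702 and 4.63 with olaparib and 3.32, 3.61 and 4.33 with vehicle in THP-1. The LAA libraries were above all other THP-1 libraries (1.42 ± 0.21, edgeR adjusted p = 0.00017 against vehicle, 2.67-fold higher). In the libraries labelled MOLM-13 it had 6.21, 3.89 and 5.38 CPM with the combination, 7.98, 7.33 and 8.67 with LAA, 2.37, 4.47 and 2.87 with olaparib and 2.19, 2.59 and 3.71 with vehicle. The LAA libraries were again the 3 highest (1.49 ± 0.25, edgeR adjusted p = 0.00226, 2.81-fold higher). With the combination AKR1C3 was above vehicle by 0.58 ± 0.22 in THP-1 (edgeR adjusted p = 0.0525, not called) and by 0.85 ± 0.25 in the libraries labelled MOLM-13 (edgeR adjusted p = 0.0312), a call lost without combination replicate 1 or 3 or vehicle replicate 1 or 2 (edgeR adjusted p of 0.0902 to 0.15) and with limma on FPKM (adjusted p of 0.0598 to 0.0644). Against LAA it was lower in THP-1 (-0.84 ± 0.21, edgeR adjusted p = 0.00384).

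AKR1C2 (chr10:4987400-5018031, minus strand, ENSG00000151632) had 148, 125 and 129 CPM with the combination, 215, 242 and 225 with LAA, 206, 182 and 196 with olaparib and 172, 179.7 and 184 with vehicle in THP-1. LAA libraries were the highest and combination libraries the lowest, and neither overlapped vehicle (0.34 ± 0.07, edgeR adjusted p = 0.00466 for LAA and -0.43 ± 0.07, edgeR adjusted p = 2.86e-05 for the combination, each against vehicle). Set against LAA, the combination was 1.71-fold lower (-0.77 ± 0.07, edgeR adjusted p = 1.85e-09). The libraries labelled MOLM-13 held more, 359, 322 and 345 CPM with the combination, 411, 405 and 503 with LAA, 377, 403 and 398 with olaparib and 362, 315 and 317 with vehicle. There LAA was above vehicle (0.41 ± 0.09, edgeR adjusted p = 0.0166), a call lost without LAA replicate 3 or vehicle replicate 2 or 3 (edgeR adjusted p of 0.0572 to 0.111) and with only both compared groups fitted (adjusted p = 0.0685). The combination overlapped vehicle (0.05 ± 0.09, edgeR adjusted p = 0.794) and was below LAA (-0.36 ± 0.09, edgeR adjusted p = 0.00873, lost without combination replicate 2, adjusted p = 0.0642).

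AKR1C1 (chr10:4963253-4983283, plus strand, ENSG00000187134) had 10.8, 10.2 and 7.83 CPM with the combination, 18.2, 18.2 and 18.9 with LAA, 11.3, 12.6 and 13.7 with olaparib and 14.1, 11.6 and 11.2 with vehicle in THP-1. Its order was that of AKR1C2, LAA above vehicle (0.58 ± 0.13, edgeR adjusted p = 0.018) and the combination below it (-0.37 ± 0.14, edgeR adjusted p = 0.0463). The first call was lost without LAA replicate 1 or 3 or vehicle replicate 2 or 3 (edgeR adjusted p of 0.0568 to 0.129) and with limma on FPKM (adjusted p of 0.078 to 0.124). The second was lost without combination replicate 2 or 3 or vehicle replicate 1 or 2 (edgeR adjusted p of 0.0568 to 0.259) and with DESeq2, with limma on FPKM, with total-count scaling, with no filter on low counts or with only both compared groups fitted (adjusted p of 0.0589 to 0.12). The combination's lower level than with LAA was called with any 1 library left out (-0.95 ± 0.13, edgeR adjusted p = 6.71e-06). Among the libraries labelled MOLM-13 it had 24.3, 20.3 and 20.01 CPM with the combination, 29.7, 24.2 and 32.3 with LAA, 23.8, 22.3 and 16.7 with olaparib and 18.9, 17.8 and 15.4 with vehicle. LAA was above vehicle (0.73 ± 0.14, edgeR adjusted p = 0.00833), a call lost without vehicle replicate 3 (edgeR adjusted p = 0.0645) and with limma on FPKM (adjusted p of 0.0582 to 0.0593). The combination was above all vehicle libraries without passing (0.31 ± 0.14, edgeR adjusted p = 0.166) and overlapped LAA, below which it was called (-0.42 ± 0.14, edgeR adjusted p = 0.0473). The last call was lost without combination replicate 2 or 3 or LAA replicate 1 or 3 (edgeR adjusted p of 0.123 to 0.195) and with limma on FPKM or with total-count scaling (adjusted p of 0.0978 to 0.123).

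**Figure D3:**
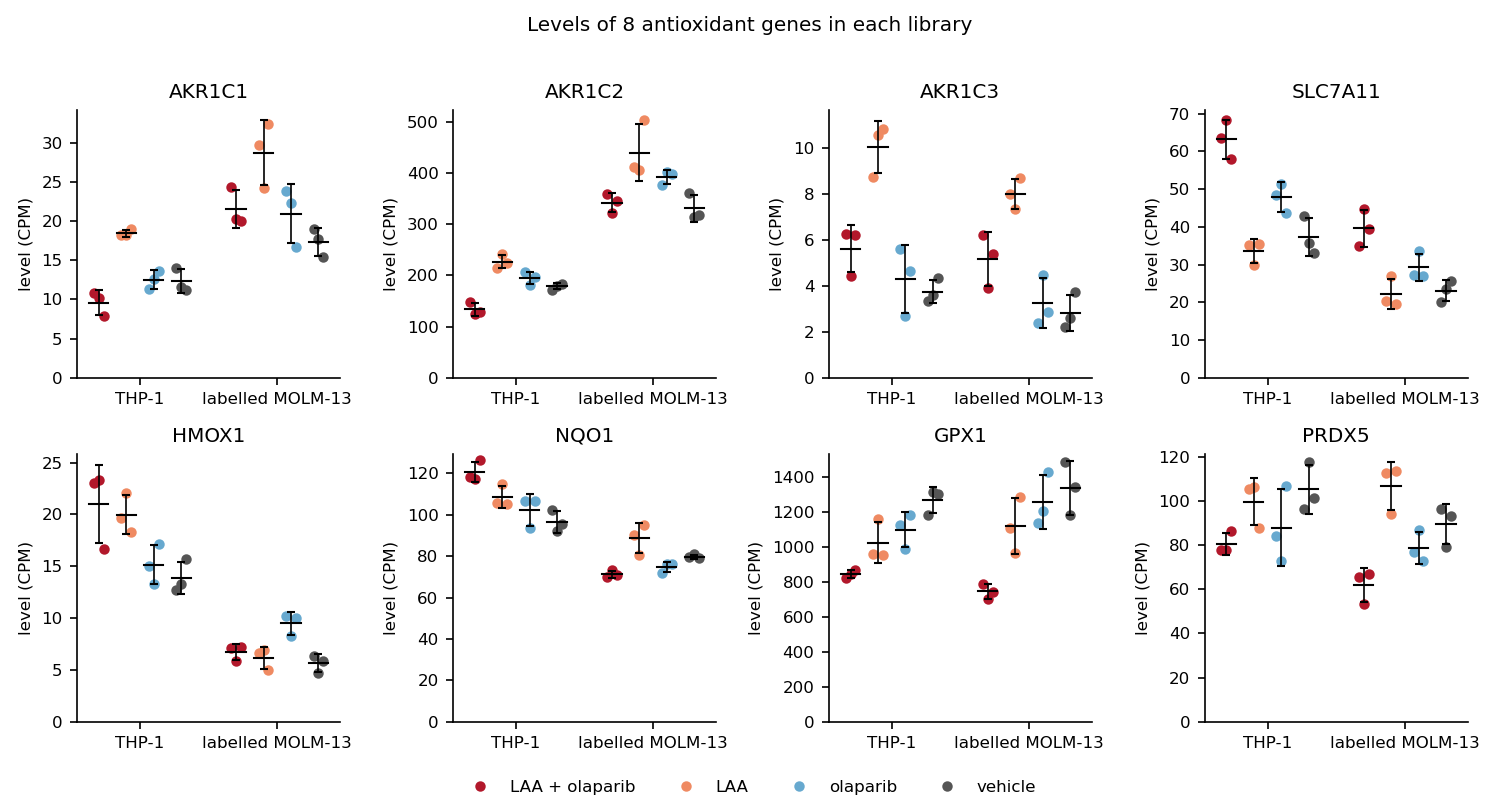
Levels (CPM, TMM-scaled) of AKR1C1, AKR1C2, AKR1C3, SLC7A11, HMOX1, NQO1, GPX1 and PRDX5 in each of the 24 libraries by line and treatment, with points for libraries and bars for mean and SD (n = 3). The 3 AKR1C genes peaked with LAA alone in each line, SLC7A11 peaked with the combination, and GPX1 was lowest with the combination.

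NQO1 (chr16:69706996-69726951, minus strand, ENSG00000181019), the quinone reductase long used to mark NRF2 activity, had 118, 117 and 126 CPM with the combination, 106, 115 and 105 with LAA, 107, 93.4 and 106 with olaparib and 102, 91.9 and 95.4 with vehicle in THP-1. Every combination library was above every library of the other THP-1 groups (0.31 ± 0.07, edgeR adjusted p = 0.00114 against vehicle). Within the libraries labelled MOLM-13 it had 69.8, 73.2 and 70.97 CPM with the combination, 90.3, 80.7 and 95.1 with LAA, 71.7, 76.4 and 75.98 with olaparib and 79.3, 80.8 and 79.1 with vehicle. There the combination libraries were below all vehicle libraries, a difference that did not pass (-0.16 ± 0.08, edgeR adjusted p = 0.187), and below all LAA libraries (-0.32 ± 0.08, edgeR adjusted p = 0.009). The line difference in the combination's effect, THP-1 minus the libraries labelled MOLM-13, was 0.48 ± 0.10, edgeR adjusted p = 0.00587. EPHX1, microsomal epoxide hydrolase, had 96.2, 87.3 and 93.99 CPM with the combination and 74.5, 69.2 and 70.7 with vehicle in THP-1 (0.36 ± 0.07, edgeR adjusted p = 0.00038). No library of one group reached the other. Across the libraries labelled MOLM-13 EPHX1 overlapped between these groups (0.00 ± 0.11, edgeR adjusted p = 0.998).

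OSGIN1, an oxidative stress-induced growth inhibitor, averaged 5.78 ± 0.683 CPM with the combination and 8.71 ± 0.6895 CPM with vehicle in the libraries labelled MOLM-13 (-0.60 ± 0.17, edgeR adjusted p = 0.0311), a call lost without combination replicate 2 or 3 or vehicle replicate 1 or 3 (edgeR adjusted p of 0.0887 to 0.151) and with limma on FPKM (adjusted p of 0.0511 to 0.0617). Against LAA, at 10.7 ± 1.95 CPM, the combination was 1.86-fold lower (-0.90 ± 0.17, edgeR adjusted p = 0.00193). UGDH, which makes UDP-glucuronate for conjugation, and ABCC1, an exporter of glutathione conjugates, were lower in THP-1 with the combination than with LAA (-0.33 ± 0.10, edgeR adjusted p = 0.0198 for UGDH and -0.31 ± 0.09, edgeR adjusted p = 0.0105 for ABCC1), the UGDH call lost without combination replicate 3 or LAA replicate 1 or 3 (edgeR adjusted p of 0.0624 to 0.148). That of ABCC1 was lost without combination replicate 2 (edgeR adjusted p = 0.0612). AKR1B1, aldose reductase, was called once, lower with the combination than with LAA in the libraries labelled MOLM-13 (-0.31 ± 0.10, edgeR adjusted p = 0.0397), lost without combination replicate 1, 2 or 3 or LAA replicate 1 or 3 (edgeR adjusted p of 0.0526 to 0.171) and with limma on FPKM, with total-count scaling or with only both compared groups fitted (adjusted p of 0.0518 to 0.092). ABCC2, another exporter, was at the edge of detection, with group means from 0.423 to 0.7602 CPM and an SE of 0.71 for the combination against vehicle in THP-1.

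HMOX1 (chr22:35380361-35394214, plus strand, ENSG00000100292) encodes the inducible heme oxygenase. In THP-1 it had 23.1, 23.3 and 16.7 CPM with the combination, 19.6, 22.03 and 18.3 with LAA, 15.04, 13.3 and 17.1 with olaparib and 12.7, 13.3 and 15.7 with vehicle. Both LAA-containing groups lay above all vehicle libraries (0.60 ± 0.13, edgeR adjusted p = 0.00126 for the combination and 0.53 ± 0.13, edgeR adjusted p = 0.0399 for LAA). The LAA call was lost without LAA replicate 1, 2 or 3 or vehicle replicate 1 or 2 (edgeR adjusted p of 0.0634 to 0.202) and with limma on FPKM (adjusted p of 0.127 to 0.137). The combination's call was kept with each single library left out. Less was found in the libraries labelled MOLM-13, 7.09, 5.83 and 7.22 CPM with the combination, 6.65, 6.97 and 4.997 with LAA, 10.2, 8.27 and 9.98 with olaparib and 6.396, 4.697 and 5.88 with vehicle. There the olaparib libraries were the 3 highest, and the difference against vehicle did not pass (0.75 ± 0.17, edgeR adjusted p = 0.236). These olaparib libraries also held 9.29 ± 1.51% mitochondrially encoded counts against 6.71 ± 0.0327% in vehicle (SD, n = 3 each), and the part of this in the HMOX1 value was not tested. BLVRB, a biliverdin reductase, had 23.8, 21.6 and 20.01 CPM with the combination and 32.7, 25.9 and 32.8 with vehicle in the libraries labelled MOLM-13, without overlap (-0.49 ± 0.13, edgeR adjusted p = 0.0161). The call was lost without combination replicate 2 or 3 or vehicle replicate 1 or 3 (edgeR adjusted p of 0.0679 to 0.0894).

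CAT encodes catalase, which splits hydrogen peroxide. In the libraries labelled MOLM-13 it had 558, 579 and 534 CPM with the combination, 581, 578 and 558 with LAA, 494, 492 and 532 with olaparib and 471, 485 and 477 with vehicle. Every treated group lay above all vehicle libraries (0.22 ± 0.07, edgeR adjusted p = 0.0345 for the combination and 0.26 ± 0.07, edgeR adjusted p = 0.0499 for LAA), but the combination's call was lost whichever of the 6 libraries was left out (edgeR adjusted p of 0.0591 to 0.16) and with no filter on low counts (adjusted p = 0.0978). That of LAA was lost whichever of the 6 libraries was left out (edgeR adjusted p of 0.0505 to 0.171) and with limma on log2(FPKM + 0.1), with total-count scaling, with no filter on low counts or with only both compared groups fitted (adjusted p of 0.0509 to 0.169). In THP-1 CAT had 579, 574 and 541 CPM with the combination, 607, 603 and 630.1 with LAA, 578, 602 and 557 with olaparib and 572, 587 and 584 with vehicle. No treatment passed there. SOD2, the mitochondrial superoxide dismutase, had 53.1, 54.9 and 50.03 CPM with the combination and 59.99, 64.9 and 59.6 with vehicle in THP-1 (-0.23 ± 0.08, edgeR adjusted p = 0.0267), without overlap. The call was lost without combination replicate 1 or 3 or vehicle replicate 1, 2 or 3 (edgeR adjusted p of 0.0514 to 0.13) and with limma on FPKM or with total-count scaling (adjusted p of 0.075 to 0.103). SOD2 overlaps WTAP on the other strand. SOD1, the cytosolic form, was called in no comparison.

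Whether olaparib altered the effect of LAA was tested as an interaction, the log2 difference between the effect of LAA in the presence of olaparib and its effect in the absence of olaparib. In THP-1 5 of 39 genes (12.8%) were called, 1 higher and 4 lower, beside 7.57% of all genes (4.04% higher and 3.54% lower). SLC7A11 was above the sum of the single effects, and AKR1C2 (-0.90 ± 0.10, edgeR adjusted p = 2.66e-07), AKR1C1 (-0.97 ± 0.19, edgeR adjusted p = 0.00124), AKR1C3 (-1.05 ± 0.30, edgeR adjusted p = 0.0322) and UGDH (-0.47 ± 0.14, edgeR adjusted p = 0.0417) were below it. The AKR1C3 call was lost without combination replicate 2, LAA replicate 2 or 3, olaparib replicate 1 or 3 or vehicle replicate 1 or 2 (edgeR adjusted p of 0.0528 to 0.133) and with limma on FPKM (adjusted p of 0.0713 to 0.129). That of UGDH was lost without combination replicate 3, LAA replicate 1 or 3, olaparib replicate 1 or 2 or vehicle replicate 1, 2 or 3 (edgeR adjusted p of 0.0642 to 0.12) and with limma on FPKM (adjusted p of 0.0906 to 0.0908). The count of 5 was 3 without LAA replicate 3, olaparib replicate 1 or vehicle replicate 2 and 2 without vehicle replicate 1. It includes AKR1C1, AKR1C2 and AKR1C3, which share sequence and are not independent calls. Among the libraries labelled MOLM-13 2 of 39 (5.13%) were called beside 2.04% of all genes (0.712% higher and 1.32% lower), both lower, AKR1C2 (-0.61 ± 0.12, edgeR adjusted p = 0.00931) and PRDX5. The AKR1C2 call was kept with each of 12 libraries left out. The count of 2 was 6 without LAA replicate 2, 3 without olaparib replicate 3 and 1 without any of the 9 libraries named for PRDX5. AKR1C1 and AKR1C3 there had interactions of -0.69 ± 0.20 and -0.83 ± 0.35 that did not pass (edgeR adjusted p = 0.0871 and 0.293).

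In each line the combination set against LAA alone gave mostly lower members. The same LAA libraries enter LAA against vehicle and the interaction, so results of these comparisons are not independent of each other. In THP-1 1 was higher and 13 lower, 14 of 39 (35.9%) beside 20.3% of all genes (10.1% higher and 10.2% lower), with a members' median of -0.10 (all genes 0.00). Within the libraries labelled MOLM-13 1 was higher and 14 lower, 15 of 39 (38.5%) beside 14.9% of all genes (6.68% higher and 8.25% lower), with a median of -0.24, or -0.17 scaled by total counts. That count of 15 was 9 without combination replicate 2 and 10 without LAA replicate 3, which stood apart from its group. The summed level of the 8 genes nearly silent in THP-1 was similar on the 2 sides of this contrast in the libraries labelled MOLM-13, 3.21 with the combination and 3.85 CPM with LAA. The share of mitochondrially encoded counts moved with this contrast, 8.38 ± 0.941% with the combination and 7.31 ± 0.381% with LAA in THP-1, and 9.08 ± 0.302% with the combination and 7.58 ± 0.569% with LAA in the libraries labelled MOLM-13. Its part in the result was not tested. SLC7A11 was the 1 gene called higher in each line. GPX1 was called lower in each (-0.28 ± 0.07, edgeR adjusted p = 0.00397 in THP-1 and -0.59 ± 0.11, edgeR adjusted p = 0.00127 in the libraries labelled MOLM-13), and PRDX3 (-0.20 ± 0.06, edgeR adjusted p = 0.0164) and PRDX5 (-0.31 ± 0.10, edgeR adjusted p = 0.0302) in THP-1. The THP-1 call of GPX1 was lost with limma on FPKM (adjusted p of 0.0542 to 0.0543). That of PRDX3 was lost without combination replicate 1 or 3 or LAA replicate 1 or 3 (edgeR adjusted p of 0.0522 to 0.112). That of PRDX5 was lost without combination replicate 1 or 2 or LAA replicate 1 or 2 (edgeR adjusted p of 0.0969 to 0.123) and with limma on FPKM (adjusted p of 0.122 to 0.124). Against olaparib alone the combination had 8 higher and 6 lower in THP-1 (35.9% beside 24.2% of all genes, 12.3% higher and 11.9% lower), among them AKR1C2 (-0.55 ± 0.07, edgeR adjusted p = 8.54e-07), GPX1 (-0.39 ± 0.07, edgeR adjusted p = 0.000135) and PRDX3 (-0.22 ± 0.06, a call lost without combination replicate 1 at edgeR adjusted p = 0.0697) lower, and EPHX1 (0.40 ± 0.07, edgeR adjusted p = 0.000153), SLC7A11 (0.39 ± 0.10) and SQSTM1 (0.28 ± 0.07) higher. DESeq2 gave 9 higher and 4 lower, and the count of 14 was 8 without combination replicate 3 and 7 without olaparib replicate 2. Across the libraries labelled MOLM-13 1 was higher and 4 lower (12.8% beside 7.48% of all genes, 2.89% higher and 4.59% lower), GCLC higher and GPX1 (-0.76 ± 0.11, edgeR adjusted p = 0.000132), TKT, TALDO1 and PRDX5 lower. The TKT call was lost without combination replicate 1, 2 or 3 or olaparib replicate 1 or 3 (edgeR adjusted p of 0.0514 to 0.105). The TALDO1 call was lost without combination replicate 2 or 3 or olaparib replicate 1, 2 or 3 (edgeR adjusted p of 0.0543 to 0.118). The PRDX5 call was lost without combination replicate 1, 2 or 3 or olaparib replicate 1 or 2 (edgeR adjusted p of 0.0745 to 0.259) and with limma on FPKM or with total-count scaling (adjusted p of 0.0901 to 0.103). Total-count scaling gave 4 higher and 3 lower, and the count of 5 was 1 without combination replicate 2 or 3 and 2 without olaparib replicate 1 or 3.

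**Figure D4:**
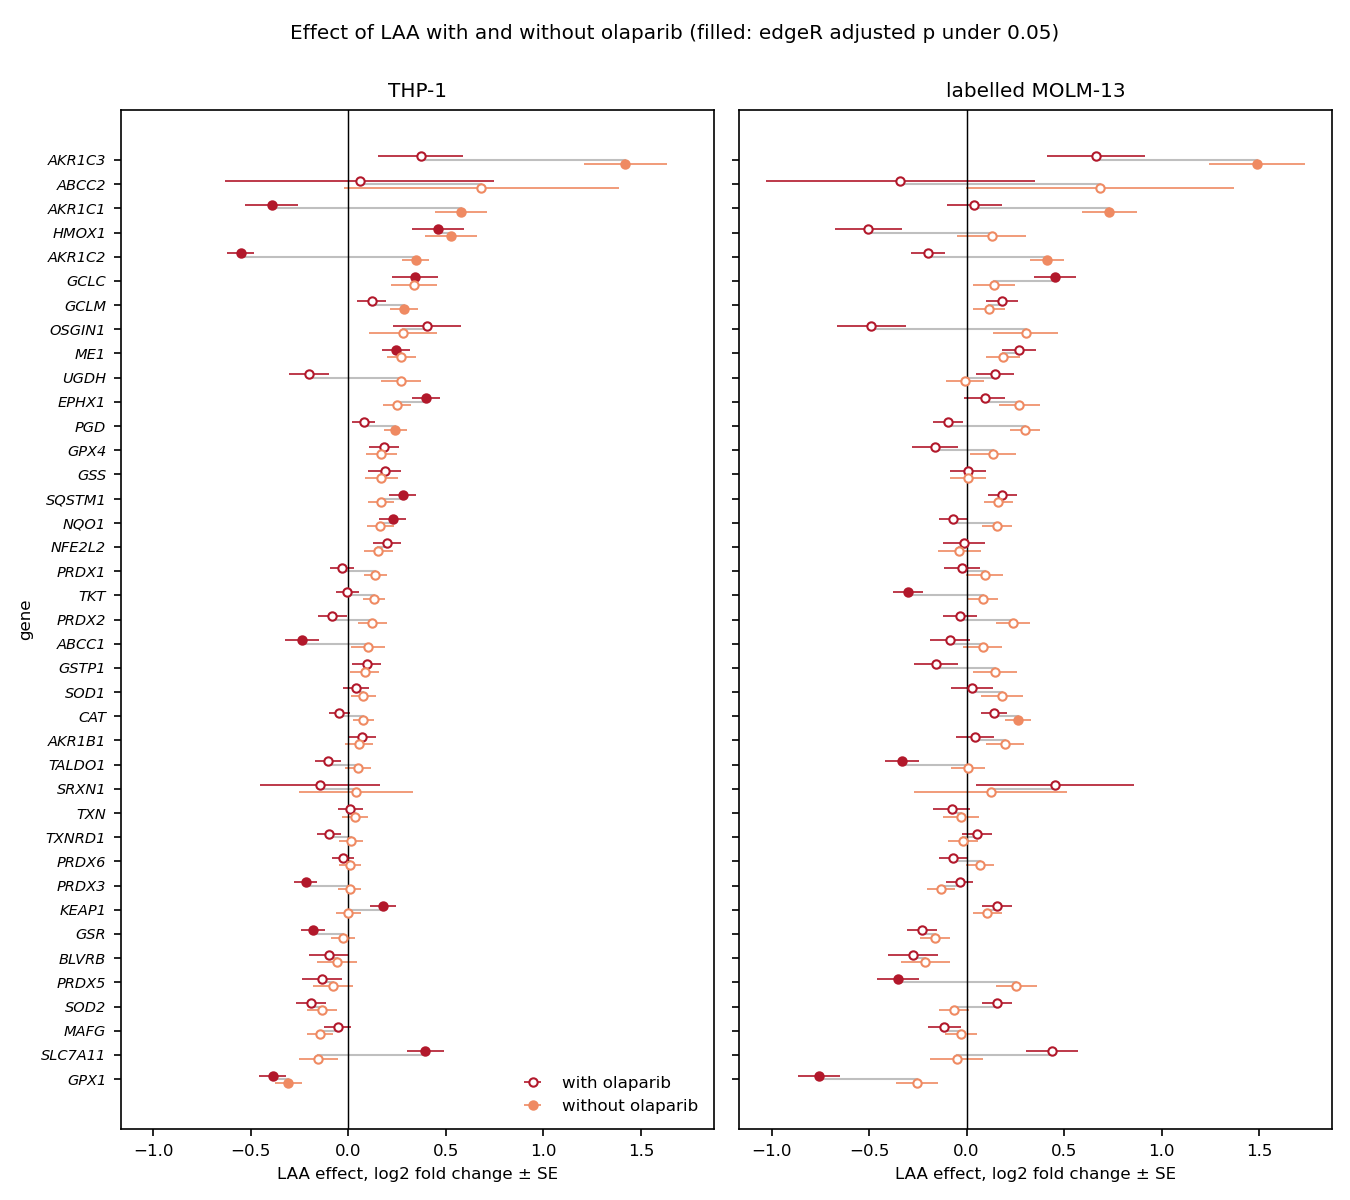
Effect of LAA (log2 fold change ± SE) on each of the 39 genes with olaparib (combination against olaparib) and without it (LAA against vehicle), in THP-1 and in the libraries labelled MOLM-13, with filled points where the edgeR adjusted p was under 0.05. AKR1C2 in THP-1 was -0.55 with olaparib and 0.34 without it, and SLC7A11 was 0.39 with it and -0.15 without.

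With vehicle alone, 7 of 39 genes (17.9%) differed between THP-1 and the libraries labelled MOLM-13, beside 4.48% of all genes (2.49% higher and 1.99% lower in THP-1), 5 higher and 2 lower in THP-1. HMOX1 was 13.9 ± 1.58 CPM in THP-1 and 5.66 ± 0.871 CPM in the libraries labelled MOLM-13 (1.29 ± 0.16, edgeR adjusted p = 1.27e-06), and SLC7A11 was 37.2 ± 5.06 CPM in THP-1 and 23.1 ± 2.74 CPM in the libraries labelled MOLM-13 (0.69 ± 0.12, edgeR adjusted p = 0.000453). AKR1C2 was 179 ± 5.92 CPM in THP-1 and 331 ± 26.5 CPM in the libraries labelled MOLM-13 (-0.89 ± 0.08, edgeR adjusted p = 2.84e-09). CAT (0.28 ± 0.06), NQO1 (0.28 ± 0.07) and ME1 (0.30 ± 0.08) were higher and AKR1C1 (-0.49 ± 0.14) lower in THP-1. The NQO1 call was lost without labelled MOLM-13 vehicle replicate 1 or 3 or THP-1 vehicle replicate 1 or 3 (edgeR adjusted p of 0.0518 to 0.135) and with no filter on low counts (adjusted p = 0.0544). That of ME1 was lost without labelled MOLM-13 vehicle replicate 1, 2 or 3 or THP-1 vehicle replicate 1 or 3 (edgeR adjusted p of 0.0572 to 0.114) and with no filter on low counts (adjusted p = 0.0682). That of AKR1C1 was lost without labelled MOLM-13 vehicle replicate 1 or 2 or THP-1 vehicle replicate 2 or 3 (edgeR adjusted p of 0.115 to 0.199) and with limma on FPKM (adjusted p of 0.0948 to 0.109). The count of 7 was 4 without vehicle replicate 1 labelled MOLM-13 or THP-1 vehicle replicate 3. For the combination 2 of 39 genes were called (5.13% beside 2.13% of all genes, 1.53% higher and 0.597% lower), NQO1 and AKR1C2 (-0.46 ± 0.11, edgeR adjusted p = 0.0236), the AKR1C2 call being lost without labelled MOLM-13 combination replicate 1 or 3, labelled MOLM-13 vehicle replicate 2 or 3, THP-1 combination replicate 2 or 3 or THP-1 vehicle replicate 2 or 3 (edgeR adjusted p of 0.0533 to 0.0756). The count of 2 was 1 without combination replicate 1 or 3 or vehicle replicate 2 or 3 labelled MOLM-13, or THP-1 combination replicate 3 or vehicle replicate 2 or 3. For LAA 0 were called (0.14% of all genes, 2 members at an unadjusted p under 0.05, 0 by DESeq2), and for olaparib 0 (0.00585% of all genes, 2 members at an unadjusted p under 0.05, 0 by DESeq2). The LAA effect on AKR1C3 differed by -0.07 ± 0.34 and that on AKR1C2 by -0.06 ± 0.11.

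Per length, the members spanned a wide range of levels. In THP-1 vehicle libraries the deposited FPKM values (fragments scaled by gene length and library size) were 879 ± 52.6 for GPX1, 259 ± 14.8 for GSTP1, 199 ± 7.69 for TXN and 193 ± 2.43 for PRDX1. TXN and PRDX1 did not differ beyond their spread. At the low end stood GCLC at 1.98 ± 0.145, AKR1C1 at 1.39 ± 0.172, SRXN1 at 1.13 ± 0.3500, AKR1C3 at 0.8203 ± 0.114 and ABCC2 at 0.0593 ± 0.0185 FPKM. GCLM (18.2 ± 0.404 FPKM) stood above GCLC, the catalytic partner of its product, and AKR1C2 (27.4 ± 0.923) far above AKR1C1 and AKR1C3. The lengths are those of the deposited gene models.

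In all, 30 of the 39 genes (76.9%) were called in at least 1 of the 16 comparisons, beside 42.6% of the 17090 genes tested in any of them. The 9 called in none were ABCC2, GSS, GSTP1, MAFG, PRDX6, SOD1, SRXN1, TXN and TXNRD1. The background share of 42.6% is for genes not matched to the members by level.

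A list of 64 further genes of redox metabolism, of which 60 were tested, was set beside the members. It was chosen for its roles, with earlier results of these data known. Unlike the members' calls, calls in this list were not checked with libraries left out or under other methods. With the combination against vehicle in THP-1, 16 were higher and 9 lower, 25 of 60 (41.7%) beside 27.1% of all genes, with a median of 0.02 beside -0.01 over all genes. SLC3A2, whose product is the heavy chain that partners xCT, was 303 ± 27.9 CPM with the combination and 128 ± 10.03 CPM with vehicle (1.24 ± 0.08, edgeR adjusted p = 7.79e-13). SESN2, a stress-induced sestrin, was 52.7 ± 3.29 CPM with the combination and 16.6 ± 2.67 CPM with vehicle (1.65 ± 0.11, edgeR adjusted p = 1.81e-12), and CHAC1, which degrades glutathione, 19.2 ± 1.07 CPM with the combination and 3.14 ± 1.45 CPM with vehicle (2.62 ± 0.23, edgeR adjusted p = 8.44e-10). The glucose transporter genes SLC2A1 (-0.53 ± 0.06, edgeR adjusted p = 7.34e-08) and SLC2A3 (-1.39 ± 0.22, edgeR adjusted p = 2.69e-05) and the sestrin gene SESN1 (-0.40 ± 0.09, edgeR adjusted p = 0.00164) were lower. In the libraries labelled MOLM-13 7 were higher and 11 lower, 18 of 60 (30%) beside 12.2% of all genes, with a median of -0.06 beside 0.00 over all genes. SESN2 (0.89 ± 0.10, edgeR adjusted p = 4.76e-06), SLC3A2 (0.60 ± 0.07, edgeR adjusted p = 1.56e-05) and CHAC1 (2.17 ± 0.27, edgeR adjusted p = 1.64e-05) led those higher, and SLC2A3 (-2.15 ± 0.17, edgeR adjusted p = 4.77e-08), the thioredoxin-binding protein gene TXNIP (-0.52 ± 0.07, edgeR adjusted p = 3.71e-05) and the microsomal glutathione transferase gene MGST3 (-0.44 ± 0.09, edgeR adjusted p = 0.00308) those lower.

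LAA alone called 1 of the 60 (1.67%) in THP-1, beside 1.49% of all genes, a share near the background. It was IDH1, a cytosolic NADPH-producing dehydrogenase (0.32 ± 0.06, edgeR adjusted p = 0.00466). Among the libraries labelled MOLM-13 it called 3 of the 60 (5%) beside 1.88% of all genes, the biliverdin reductase gene BLVRA (0.41 ± 0.09, edgeR adjusted p = 0.0205) and the nucleoredoxin gene NXN (0.37 ± 0.08, edgeR adjusted p = 0.0254) higher and SLC2A3 (-0.81 ± 0.16, edgeR adjusted p = 0.00833) lower. Olaparib alone called 0 of the 60 in each line by edgeR, with 5 in THP-1 and 8 in the libraries labelled MOLM-13 at an unadjusted p under 0.05. The combination against LAA gave 13 higher and 5 lower in THP-1 (30% beside 20.3% of all genes) and 6 higher and 13 lower in the libraries labelled MOLM-13 (31.7% beside 14.9%), and SLC3A2, SESN2 and CHAC1 had the smallest p among the higher genes in each. Against olaparib it gave 18 higher and 7 lower in THP-1 (41.7% beside 24.2%), and 4 higher and 6 lower in the libraries labelled MOLM-13 (16.7% beside 7.48%). The interaction called 6 of the 60 (10%) in THP-1 beside 7.57% of all genes. They were SLC3A2 (1.07 ± 0.11, edgeR adjusted p = 7.44e-08), SESN2 (1.26 ± 0.15, edgeR adjusted p = 1.69e-06), CHAC1 (2.06 ± 0.33, edgeR adjusted p = 0.000126) among 4 genes higher and SLC2A1 (-0.52 ± 0.08, edgeR adjusted p = 7.77e-05) and SLC2A3 (-1.29 ± 0.30, edgeR adjusted p = 0.00761) lower. Within the libraries labelled MOLM-13 it called 4 of the 60 (6.67%) beside 2.04% of all genes, SESN2 (0.76 ± 0.14, edgeR adjusted p = 0.00591), SLC3A2 (0.50 ± 0.10, edgeR adjusted p = 0.0118) and CUL3 (0.50 ± 0.13, edgeR adjusted p = 0.0494) higher and SLC2A1 (-0.64 ± 0.10, edgeR adjusted p = 0.00118) lower. The combination's effect, THP-1 minus labelled MOLM-13, differed for 5 of the 60 (8.33%) beside 2.13% of all genes, SLC3A2 (0.64 ± 0.11, edgeR adjusted p = 0.000578) and SESN2 (0.77 ± 0.14, edgeR adjusted p = 0.00186) and TXNIP (0.36 ± 0.09) among 4 genes higher and SLC2A1 (-0.32 ± 0.09) lower. With vehicle alone 4 of the 60 were higher and 4 lower in THP-1 (13.3% beside 4.48% of all genes), led by PRDX4 (0.55 ± 0.09, edgeR adjusted p = 6.82e-05) and SLC2A3 (-1.51 ± 0.18, edgeR adjusted p = 9.15e-07).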

How the data were processed

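Per the labels' protocols, polyA-selected RNA was made into libraries with a kit that does not mark strand. Per the submitters' processing notes, HISAT2, SAMtools and DESeq2 were used with hg38; which program counted reads, how it treated strand, and all versions are not given in the sources. The authors deposited raw read counts per gene and FPKM values, which here rank genes by level per length and enter an alternative test. The count columns of all 24 libraries were used, 18666259 to 25265870 counts each. Groups came from the labels.

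From the counts, edgeR 4.0.16 (R 4.3.3) kept genes by filterByExpr, scaled by TMM and tested with glmQLFit and glmQLFTest, per line over 12 libraries and over 24 for comparisons between lines. Benjamini-Hochberg adjustment ran over all genes tested, with a threshold of 0.05. The SE of a log2 fold change is its size over the square root of F. The comparison of olaparib effects between lines was added after the files had been seen. Alternatives were DESeq2 1.42.0, limma 3.58.1 on log2(FPKM + 1) and log2(FPKM + 0.1), other scalings, no filter, only the groups compared, a replicate block and leaving out each library. No pair of replicates agreed within sampling noise.

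The members and lists were chosen with earlier results of these data known. Values per library are given for NFE2L2, KEAP1, HMOX1, NQO1, GCLM, SRXN1, TXNRD1, SLC7A11 and AKR1C1 to AKR1C3 and, in each treatment against vehicle, for up to 6 called members per direction with the smallest adjusted p. Of the related list, up to 3 called genes per direction are named in each comparison.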

Additional observations from a re-analysis of the deposited data

Results flagged for a closer look

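The effect of the combination differed between the lines for 2 genes by a test of the difference itself (edgeR over 24 libraries). For NQO1 the difference, THP-1 minus the libraries labelled MOLM-13, was 0.48 on the log2 scale (edgeR adjusted p = 0.00587). It averaged 121 ± 4.96 CPM with the combination and 96.6 ± 5.29 with vehicle in THP-1, and 71.3 ± 1.72 with the combination and 79.7 ± 0.922 with vehicle in the libraries labelled MOLM-13 (SD, n = 3 each). The NQO1 call held with each of the 12 libraries compared left out in turn. For AKR1C2 it was -0.46 (edgeR adjusted p = 0.0236), a call lost without 8 of the 12 libraries, each left out in turn (adjusted p of 0.0533 to 0.0756). It averaged 134 ± 12.2 CPM with the combination and 179 ± 5.92 with vehicle in THP-1, and 342 ± 18.7 with the combination and 331 ± 26.5 with vehicle in the libraries labelled MOLM-13 (SD, n = 3 each). The libraries labelled MOLM-13 also differed among treatments in genes nearly silent in THP-1, and the part of this in both values was not tested.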

How the results depend on the processing

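Of 101 calls of members over the 16 comparisons, 45 held under every alternative run, 56 were lost under at least 1 and 0 changed direction. In THP-1, limma on log2(FPKM + 1) and on log2(FPKM + 0.1) each called 2 members with LAA against vehicle, in place of 7, and 2 in the interaction, in place of 5. Without the filter 1 member was called with olaparib in each line, in place of 0. In the libraries labelled MOLM-13, LAA called 2 by limma on log2(FPKM + 0.1) and 2 when only both compared groups were fitted, in place of 4. The combination against olaparib called 8 by DESeq2, in place of 5. The interaction called 6 by DESeq2, 4 without the filter, 1 by limma with either pseudocount and 1 with total-count scaling, in place of 2. The line difference in the combination's effect called 4 by DESeq2 and 4 without the filter, in place of 2. The causes were not tested.

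Leaving out 1 library at a time gave these ranges of members called. In THP-1 they were 10 to 15 for the combination, 2 to 5 for LAA and 0 to 1 for olaparib against vehicle, 10 to 13 for the combination against LAA, 7 to 12 against olaparib, and 2 to 5 for the interaction. In the libraries labelled MOLM-13 they were 5 to 9, 1 to 4, 0 to 0, 9 to 18, 1 to 5 and 1 to 6 in the same order. They were 4 to 6 between the vehicle groups, and 1 to 2, 0 to 0 and 0 to 0 for the line differences in the effects of the combination, LAA and olaparib. Scaling moved the median of all genes by no more than 0.1 in any comparison. Over all alternatives, the members' median moved beyond its spread between replicate libraries in 11 runs and stayed within it in 238. The splits of members by direction under total-count scaling are given above.

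Deviations of same-numbered libraries from their group means correlated at -0.135 to 0.0908 in THP-1 and -0.149 to 0.243 in the libraries labelled MOLM-13. For differently numbered libraries the ranges were -0.0945 to 0.144 and -0.245 to 0.312. No pairing by replicate number was seen, but these values cannot show that the samples were unpaired. With the replicate block, members called were 14, 5, 0, 14, 12 and 5 in THP-1 and 11, 4, 0, 15, 6 and 2 in the libraries labelled MOLM-13, in the order above. Between lines they were 5, 2, 0 and 0. The block lost 8 of the 101 calls, and the losses listed above with each gene do not include these. In THP-1 they were HMOX1 and GCLM with LAA against vehicle, AKR1C1 with the combination against vehicle, and KEAP1 and ABCC1 with it against olaparib. The others were CAT with LAA against vehicle in the libraries labelled MOLM-13, and NQO1 and AKR1C1 between the vehicle groups.

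With 3 libraries a group, low genes such as ABCC2, SRXN1 and AKR1C3 carry wide errors, and small differences in them were not detectable at this depth.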
